A study of Mus musculus with 6 samples.

Results

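Fgf21, a hormone of the fibroblast growth factor (FGF) family, was examined together with its co-receptor Klb and the FGF receptors Fgfr1, Fgfr2, Fgfr3 and Fgfr4 in whole mouse pancreas. All probe sets that the platform annotation assigns to exactly 1 gene, that gene being one of these 6, were taken, which gave 16 of the 45101 probe sets on the array. Fgf21 had 1 probe set, Klb 2, Fgfr1 3, Fgfr2 3, Fgfr3 2 and Fgfr4 5. Fgf21 was chosen by its measured KO minus WT difference, being lower in the knockout, so that difference is given as a description with no test. The co-receptor and the receptors were chosen for their roles, and their differences were tested.

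The genotypes compared were Rkip-1 KO and WT, both from the same colony on a C57BL/6 background and both 8 weeks old. Each genotype is represented by 3 arrays from biological replicates. Rkip-1 (Raf kinase inhibitor 1, gene Pebp1) is known to restrain signalling from Raf to MEK and ERK, the kinase cascade that FGF receptors also engage. The labels state neither the sex of the mice, nor the part of Pebp1 that was removed, nor any litter or batch.

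FGF21 circulates as a hormone because it binds heparan sulfate weakly. It signals through an FGF receptor only where the single-pass membrane protein beta-klotho, the product of Klb, is also present, and FGFR1 is its preferred partner. In the mouse pancreas, acinar cells are known both to make FGF21 and to respond to it by secreting digestive enzymes. Transcription of Fgf21 is known to be induced by PPARalpha in fasted liver and by ATF4, the transcription factor of the integrated stress response.

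The region in front of Fgf21 is shown because the genes that resembled Fgf21 most over these arrays included known ATF4 targets. It covers 250 bases before and 50 bases after the gene start on the minus strand, chr7:45615441-45615740 of GRCm38.p6, from RefSeq. Capitals mark, in order, TTGCATCA, which is the ATF4 and C/EBP composite motif TGATGCAA read on the other strand, the E-box CACGTG and the TATA box TATAAA.
Fgf21 promoter: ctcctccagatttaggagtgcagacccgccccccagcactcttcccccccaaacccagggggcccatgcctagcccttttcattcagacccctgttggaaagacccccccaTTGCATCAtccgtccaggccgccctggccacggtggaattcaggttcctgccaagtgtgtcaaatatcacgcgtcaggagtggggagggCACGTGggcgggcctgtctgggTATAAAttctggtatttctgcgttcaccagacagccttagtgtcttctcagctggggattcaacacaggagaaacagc
The composite motif lay at -139 to -132 from the gene start, the E-box at -50 to -45 and the TATA box at -28 to -23, and none of the 3 overlapped another. Each motif was searched on both strands. TGATGCAA occurred in 0.895% of 32851 promoter windows of this length, CACGTG in 7.15% and TATAAA in 13.6%. The nuclear receptor half-site AGGTCA, present in 16.3% of the windows, was not in that of Fgf21.

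TGATGCAA was in none of the windows of Klb, Fgfr2, Fgfr3 and Fgfr4, and a window of Fgfr1 was not analysed here. Among 14 genes of a list of 15 known ATF4 targets that had a window, 5 carried it, namely Atf3, Chac1, Nupr1, Slc7a11 and Vldlr. It was not in the windows of Trib3 and Ddit4, the genes most like Fgf21. Of the 5 that carried it, Chac1 (-2.63) and Slc7a11 (-0.63) were lower in KO without overlap of the groups, by brightest probe set. The groups of Atf3 (-0.20), Nupr1 (-0.12) and Vldlr (-0.10) overlapped. The site of Fgf21 is set beside that of Chac1, a glutathione-degrading enzyme, and both sites of Slc7a11, the cystine importer. The motif is in capitals with 10 flanking bases on each side, read on the strand that spells TGATGCAA. Sites of the other carriers are not printed.
Fgf21 site (chr7:45615612-45615639, plus strand): cctggacggaTGATGCAAtgggggggtc
Chac1 site (chr2:119351039-119351066, minus strand): ctggcaggagTGATGCAAcggcagggaa
Slc7a11 site at -66 to -59 (chr3:50443662-50443689, minus strand): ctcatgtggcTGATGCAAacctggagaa
Slc7a11 site at -47 to -40 (chr3:50443643-50443670, plus strand): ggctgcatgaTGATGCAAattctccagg
A match is a description of the letters in these windows and shows no binding.

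Values are RMA values on the log2 scale, in which 1 unit is a doubling. Array medians lay between 2.97 and 3.02 and upper quartiles averaged 4.54, and these marks serve below to say how dim a probe set was, since no detection calls were used here. The 6 arrays correlated pairwise at 0.989 to 0.993. Pebp1 measured 5.89, 6.50 and 5.71 in KO, against 9.81, 10.01 and 9.81 in WT, by its brightest probe set, 1438649_x_at. The suffix of that name marks cross-hybridising probes, so its KO values need not be Pebp1 transcript. By the other, 1415950_a_at, Pebp1 measured 2.76, 3.35 and 3.56 in KO, against 8.58, 8.53 and 8.45 in WT. The acinar enzyme gene Cpa1 measured 14.35 to 14.37 in KO and 14.38 to 14.39 in WT, and the insulin gene Ins2 12.53 to 12.67 in KO and 12.67 to 12.70 in WT, so markers of both compartments of the labelled tissue were bright. Over all 45037 probe sets tested, 44 passed at an adjusted p under 0.05, which is 0.0977%.

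Fgf21 was lower in all KO mice than in any WT mouse, and it lay above the array medians in all of them. Its probe set 1422916_at measured 3.49, 4.02 and 4.14 in KO replicates 1, 2 and 3, against 7.11, 6.26 and 5.62 in WT replicates 1, 2 and 3. The groups did not overlap, and the lowest WT value exceeded the highest KO value by 1.48. All 3 KO values lay below the upper quartile of the arrays and all 3 WT values above it. The means were 3.88 ± 0.35 in KO and 6.33 ± 0.75 in WT (log2, SD, n = 3 each), a difference of -2.45, or a 5.46-fold lower level in KO. Because the KO level is dim, where RMA compresses differences, this fold can be too small. It can also be too large, because Fgf21 was chosen by this difference in the same arrays.

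Among these arrays the Fgf21 values were spread more widely in WT than in KO. A difference in spread was not tested, and the KO values lie in the dim range that RMA compresses. The WT values spanned 1.49 log2 units and the KO values 0.65. Leaving out 1 array at a time gave differences from -2.80, without WT replicate 3, to -2.06, without WT replicate 1. In whole tissue, fewer cells of a type and less RNA per cell cannot be told apart.

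Xist, the transcript of the inactive X chromosome, was high in KO replicates 2 and 3 and in WT replicate 3, at 9.09 to 9.79 by its brightest probe set, and at most 4.43 in the others. Among the arrays with high Xist, Fgf21 averaged 4.08 in 2 KO arrays and measured 5.62 in 1 WT array. Among those with low Xist, it measured 3.49 in 1 KO array and averaged 6.69 in 2 WT arrays. With the Xist level as a covariate over all 6 arrays the difference was -2.37.

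**Figure D1:**
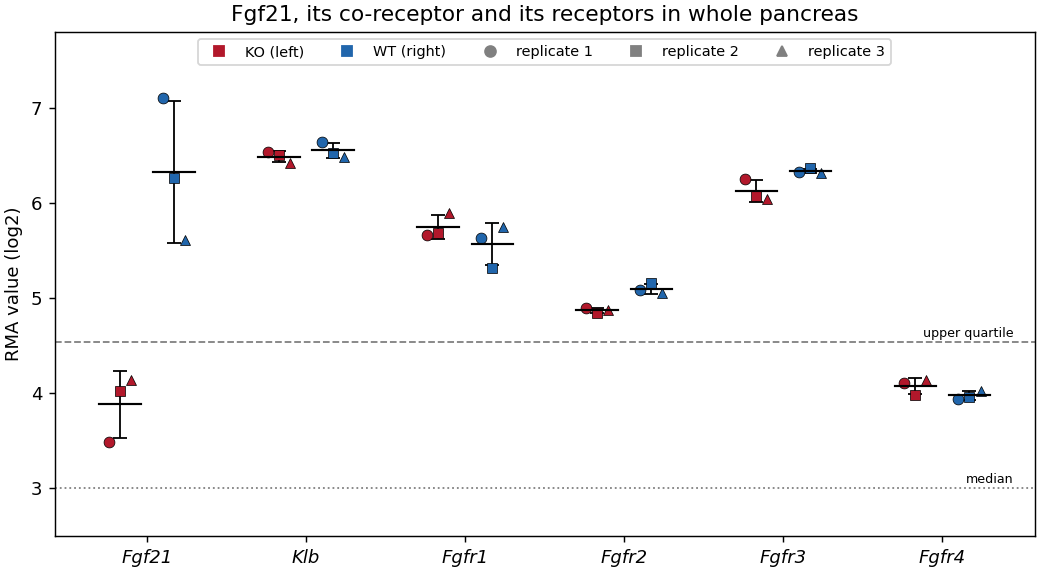
RMA values (log2) of the brightest probe set of Fgf21, Klb and the 4 FGF receptors, with 1 point per array, KO in red on the left and WT in blue on the right of each gene, and symbols by replicate number. Black bars give mean ± SD (n = 3 each), and dotted and dashed lines the mean array median (3.01) and upper quartile (4.54). The Fgf21 groups lie far apart, whereas those of Klb, Fgfr1 and Fgfr4 overlap and those of Fgfr2 and Fgfr3 are separated by small amounts.

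Of the co-receptor and the receptors, no probe set passed the test. By limma, 0 of 15 probe sets passed over all probe sets tested, where 0.0977% of all did, and 3 had an unadjusted p under 0.05, against 8.68% of all. The groups did not overlap in 4 of the 15, with KO above WT in 2 and below it in 2. Over all probe sets this was so in 13.5%, with KO above WT in 6.97% and below it in 6.51%. The 15 differences lay between -0.23 and 0.29, and no 95% interval among them reached beyond -0.42 or 0.50. The mean over all arrays was above the upper quartile for 4 of the 15 probe sets, between median and upper quartile for 4, and below the median for 7.

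Klb, the co-receptor without which FGF21 does not signal, differed little by its bright probe set. Probe set 1449568_at measured 6.54, 6.51 and 6.42 in KO, against 6.65, 6.53 and 6.49 in WT, and the groups overlapped. The difference was -0.07 with a 95% interval of -0.26 to 0.13 (limma, adjusted p 0.886). The second Klb probe set, 1426075_at, lay below the array medians, at 2.74, 2.90 and 2.79 in KO and 2.43, 2.52 and 2.60 in WT. All its KO values were above all its WT values, with a difference of 0.29 (0.09 to 0.50, adjusted p 0.405). The 2 probe sets thus differ in sign, and the mean of both gave 0.11.

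Fgfr1, the receptor that FGF21 prefers, measured 5.67, 5.69 and 5.90 in KO, against 5.64, 5.32 and 5.75 in WT, by probe set 1424050_s_at. The groups overlapped, and the difference of 0.18 had an interval of -0.10 to 0.46 (adjusted p 0.727). Without WT replicate 2, the lowest array, it was 0.06. The name suffix of this probe set marks probes shared by several transcripts. The other 2 Fgfr1 probe sets were at 2.57 to 3.19 in KO and 2.75 to 3.19 in WT, near the array medians, with differences of -0.07 and -0.03. The mean of all 3 probe sets differed by 0.03 (adjusted p 0.947).

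Fgfr2, whose epithelial form is the receptor of Fgf7 and Fgf10 in the developing pancreas, measured 4.90, 4.84 and 4.88 in KO, against 5.08, 5.16 and 5.06 in WT, by probe set 1433489_s_at. The name of this probe set has the same suffix as that of Fgfr1. All KO values lay below all WT values by a small margin. The difference was -0.23 with an interval of -0.41 to -0.04, an unadjusted p of 0.0224 and an adjusted p of 0.485, so it did not pass. Its other 2 probe sets lay at 2.34 to 2.81 in KO and 2.24 to 2.82 in WT and differed by -0.05 and 0.004. The mean of all 3 probe sets differed by -0.09 (adjusted p 0.766).

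Fgfr3, a receptor best known as a brake on growth of cartilage, measured 6.26, 6.07 and 6.05 in KO, against 6.33, 6.37 and 6.32 in WT, by probe set 1421841_at. Here too the groups did not overlap. The difference was -0.21 with an interval of -0.42 to -0.01, an unadjusted p of 0.0426 and an adjusted p of 0.558. Its dimmer probe set 1425796_a_at measured 3.31 to 3.62 in KO and 3.16 to 3.50 in WT and differed the other way, by 0.16 (adjusted p 0.750). The mean of both probe sets differed by -0.03 (adjusted p 0.953), so the size of the Fgfr3 difference rests on the bright one.

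Fgfr4, which with beta-klotho forms the liver receptor of the bile acid hormone FGF15, was dim at all of its probe sets. The brightest, 1427777_x_at, measured 4.11, 3.98 and 4.14 in KO, against 3.94, 3.96 and 4.03 in WT, and the groups overlapped. The difference was 0.10 with an interval of -0.10 to 0.29 (adjusted p 0.806). A second probe set with the suffix that marks cross-hybridising probes, 1427846_x_at, measured 3.49, 3.43 and 3.41 in KO and 3.30, 3.26 and 3.27 in WT. Its groups did not overlap, but the difference of 0.16 did not pass (adjusted p 0.623). The remaining 3 probe sets lay below the array medians, and the mean of all 5 differed by 0.06 (adjusted p 0.827).

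**Figure D2:**
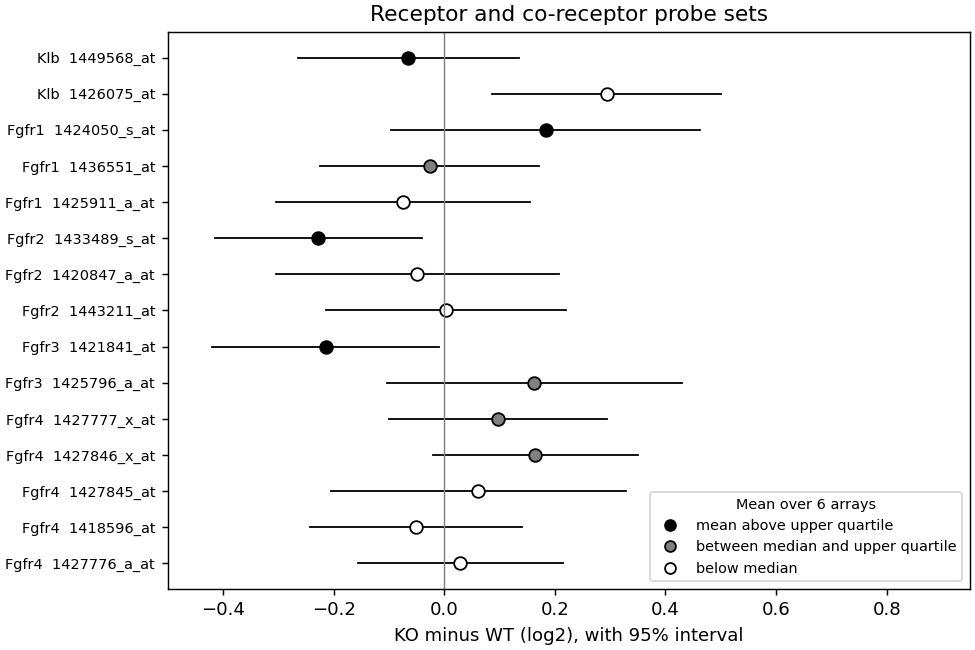
KO minus WT difference (log2) of each of the 15 co-receptor and receptor probe sets with its 95% interval from limma. Filled, grey and open points mark probe sets whose mean over the 6 arrays lay above the upper quartile, between median and upper quartile, or below the median, and all points lie between -0.23 and 0.29.

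The intervals of the bright probe sets put bounds on the signal of those probe sets, which for Fgfr1 and Fgfr2 have probes shared by several transcripts. For Klb the interval spans 0.83 to 1.10 of the WT level, for Fgfr1 0.94 to 1.38, for Fgfr2 0.75 to 0.97 and for Fgfr3 0.75 to 0.99. The second, dim Klb probe set spans 1.06 to 1.42, in the other direction. The dimmer probe sets of Fgfr1 span 0.86 to 1.13 and 0.81 to 1.11. Those of Fgfr2 span 0.81 to 1.15 and 0.86 to 1.17, and that of Fgfr3 0.93 to 1.35, so all of these include the WT level. None of the intervals is adjusted for the number of probe sets. Differences as large as that of Fgf21 lie outside all of them, but Fgf21 was chosen by its difference. An adjusted p above the threshold does not show that the levels were equal.

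None of the other FGF ligands passed the test. All 21 other FGF ligands on the list had a probe set. By limma 0 passed, where 0.132% of all genes did by their brightest probe set, and 0 had an unadjusted p under 0.05, where 4.55% of all genes were higher and 5.58% lower at that level. Their median difference was 0.04, against -0.0006 over all 18193 genes, and 14 of the 21 lay below the array medians. The 3 with the highest values were Fgf4, with 5.79 ± 0.04 in KO and 5.75 ± 0.05 in WT, Fgf3 and Fgf22. The largest differences were those of Fgf6 at -0.16, Fgf13 at 0.14, Fgf12 at -0.14 and Fgf1 at 0.13. The other endocrine ligands were dim, with Fgf15 at 2.69 ± 0.05 in KO and 2.67 ± 0.19 in WT, and Fgf23 at 2.36 ± 0.01 in KO and 2.25 ± 0.13 in WT.

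Of the relatives of Klb and of the receptors, Kl (alpha-klotho, the co-receptor of FGF23) lay below the array medians and differed by -0.10. Fgfrl1, an FGF receptor without a kinase domain, measured 6.70 ± 0.04 in KO and 6.70 ± 0.10 in WT. The list of extracellular proteins that bind, cleave or release FGFs had 0 of 8 members past the threshold, where 0.132% of all genes passed. At an unadjusted p under 0.05, 2 were higher in KO and 1 was lower, where 4.55% of all genes were higher and 5.58% lower at that level. The heparan sulfate carriers Sdc4 and Sdc1 differed by 0.40 and 0.32 and Sdc2 by -0.35. Fap, a protease known to inactivate human FGF21, differed by -0.23.

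Adaptors carry the signal from the receptors into the cell. Of 8 measured receptor adaptors 0 passed by limma, where 0.132% of all genes did. The count at an unadjusted p under 0.05 was also 0, where 4.55% of all genes were higher and 5.58% lower. The largest differences were Cbl at 0.15, Plcg1 at 0.11, Ptpn11 at -0.08 and Gab1 at -0.07. Of 11 genes that respond to FGF signalling through ERK, 0 passed and 2 were lower at an unadjusted p under 0.05, where 5.58% of all genes were. In all 9 of the 11 were lower in KO, with a median of -0.09, against 9126 of all 18193 genes. Egr1, an immediate early transcription factor, measured 5.17, 5.43 and 6.23 in KO, against 6.56, 6.36 and 7.22 in WT, with no overlap and a difference of -1.10 (adjusted p 0.296). Spry2, a feedback inhibitor of receptor tyrosine kinases, differed by -0.53 (adjusted p 0.426), also without overlap. Over all genes, 7.56% were lower in KO without overlap. Etv5 differed by -1.22, with WT values from 2.90 to 6.00, and Spred2 by 0.55, with its highest value of 6.16 in KO replicate 1.

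Among 19 transcription factors and stress kinases known to act on Fgf21, 0 passed by limma, where 0.132% of all genes did. The list median was 0.02. At an unadjusted p under 0.05, 1 was higher in KO and 3 were lower, where 4.55% of all genes were higher and 5.58% lower. Atf4 measured 8.78, 8.88 and 8.80 in KO, against 9.25, 9.36 and 8.82 in WT, and differed by -0.32 (adjusted p 0.550). Ddit3 (CHOP), a transcription factor that ATF4 induces, measured 5.08, 5.52 and 5.27 in KO, against 6.48, 6.53 and 5.60 in WT. Its groups did not overlap, where 7.56% of all genes were lower in KO without overlap, and it differed by -0.91 (adjusted p 0.287). Xbp1, of the unfolded protein response, went the other way, at 11.97 ± 0.09 in KO and 11.72 ± 0.08 in WT (adjusted p 0.484). Ppara differed by 0.13, Mlxipl (ChREBP, a glucose-responsive factor) by 0.05, and the coactivator gene Ppargc1a by -0.44.

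Known targets of ATF4 were mostly lower in KO, as Fgf21 was. Of 14 measured, 13 were lower, against 9126 of all 18193 genes, and 7 of the 13 were so without overlap of the groups, where 7.56% of all genes were lower and 6.87% higher without overlap. The list median was -0.24, and 6 were lower at an unadjusted p under 0.05, where 5.58% of all genes were. By their brightest probe set 0 passed over all probe sets, where 0.132% of all genes did. The list was chosen with such results known, so its direction is no independent evidence.

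Chac1 measured 6.59, 8.34 and 8.54 in KO, against 10.78, 10.84 and 9.74 in WT, a difference of -2.63 (limma, adjusted p 0.142). Ddit4, an inhibitor of mTORC1, measured 5.76, 6.42 and 6.67 in KO, against 8.67, 8.03 and 6.90 in WT, a difference of -1.58 (adjusted p 0.276). Trib3, a pseudokinase that ATF4 and CHOP induce, measured 4.13, 4.63 and 4.52 in KO, against 6.00, 6.08 and 5.29 in WT, a difference of -1.36 (adjusted p 0.0614). The groups did not overlap in any of these, with KO replicate 1 lowest of all arrays and WT replicate 3 lowest of its group.

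Slc7a11 differed by -0.63 (adjusted p 0.194). A second Trib3 probe set, 1456225_x_at, whose suffix marks cross-hybridising probes, fell by 1.72 and passed (adjusted p 0.024). A second Slc7a11 probe set, near the array medians, differed by 0.02. Without WT replicate 3, Trib3, Ddit3 and Ddit4 passed by their brightest probe sets, with adjusted p of 0.0093, 0.0217 and 0.0473. That array was the lowest WT array in each of these genes, so leaving it out enlarges their differences. It was also the only WT array with high Xist, so without it Xist and genotype are harder to tell apart. With the Xist level as a covariate over all 6 arrays, 0 genes of the pathway lists passed. With any other array left out, no gene of the pathway lists passed. Among the amino acid synthesis genes of the same list, Asns differed by -0.08, Phgdh by 0.02, Psat1 by -0.28 and Cth by -0.29. The groups of Asns and Psat1 did not overlap, and none of these genes passed.

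**Figure D3:**
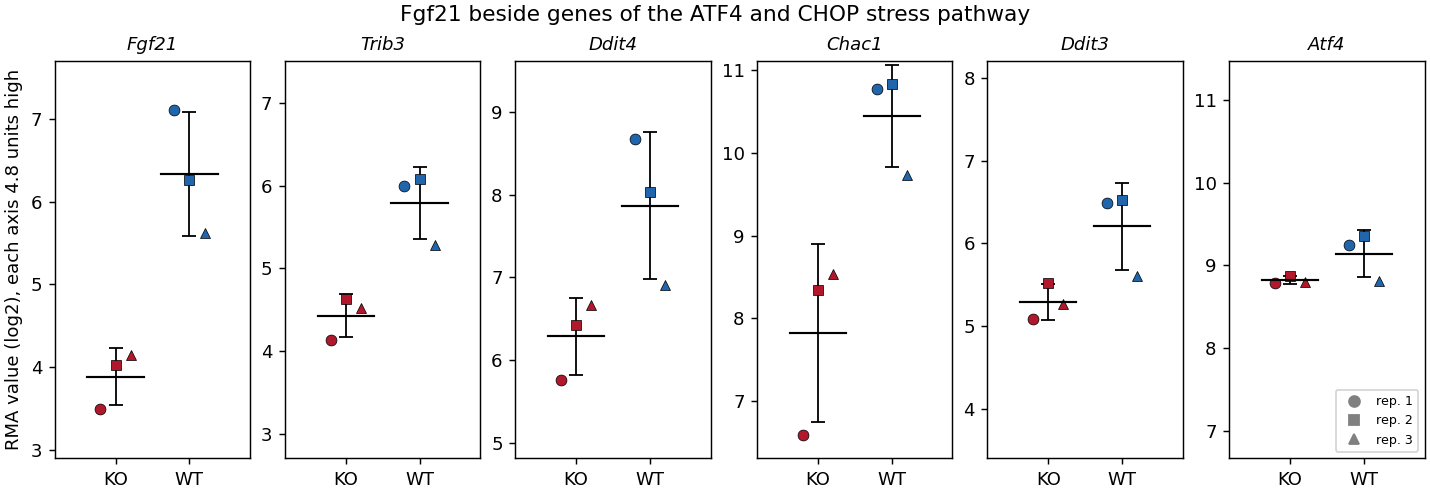
RMA values (log2) of Fgf21 and of Trib3, Ddit4, Chac1, Ddit3 and Atf4, by brightest probe set, with KO in red on the left, WT in blue on the right and symbols by replicate number. Black bars give mean ± SD (n = 3 each) and all axes span the same number of log2 units. KO replicate 1 is the lowest array in all 6 genes, and WT replicate 3 is the lowest WT array in all 6.

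Known targets of PPARalpha did not pass the test. Of 11 measured, 0 passed, where 0.132% of all genes did. At an unadjusted p under 0.05, 2 were lower, where 5.58% of all genes were, and the median was -0.02. Pdk4, which limits glucose oxidation, differed by 0.36, with 4.42 in KO replicate 1 against 3.09 and 2.83 in the other KO arrays. Ehhadh, of peroxisomal fatty acid oxidation, differed by -0.27, the lipid droplet protein gene Plin2 by -0.26 and Acot1 by 0.18.

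**Figure D4:**
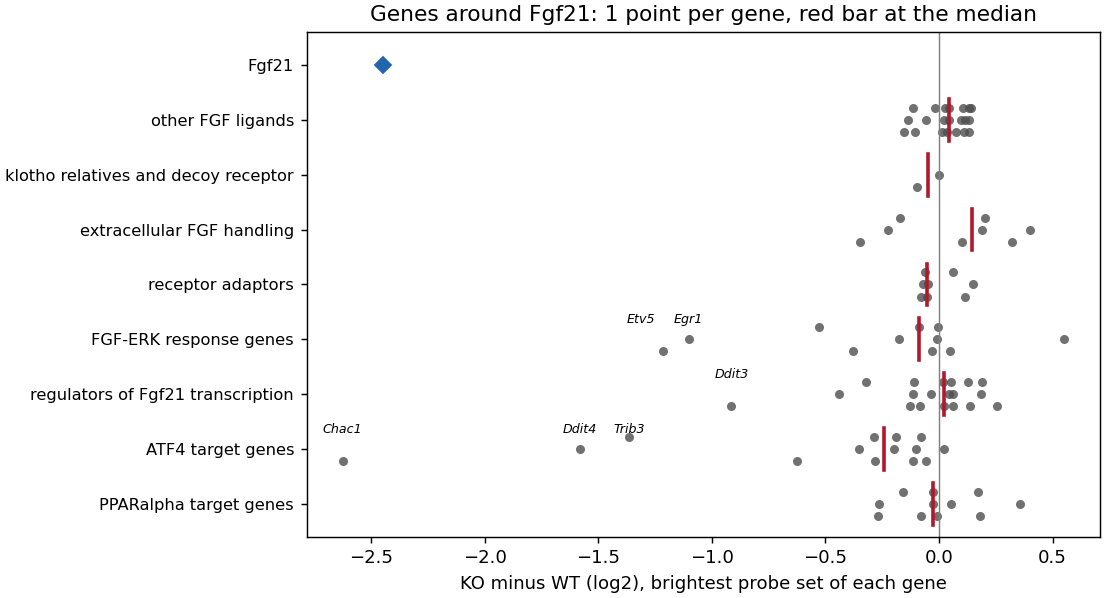
KO minus WT difference (log2) of each measured gene of 8 lists around Fgf21, by brightest probe set, with the list median as a red bar and Fgf21 itself (-2.45) as a blue diamond at the top. Genes beyond 0.9 in size are named, and the ATF4 targets Chac1, Ddit4 and Trib3 are the points nearest to Fgf21.

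The genes whose pattern over the 6 arrays was most like that of Fgf21 were ranked by Pearson correlation among 249 genes with a mean of at least 5 and a range of at least 1 log2 unit. The arrays fall into 2 genotype groups, so a gene that differs by genotype scores high whatever its pattern within them, and 21 of the 249 exceeded 0.9. The 8 most alike were Trib3 (0.97), Ddit4 (0.96), Mpzl2 (0.95), Col1a1 (0.95), Rfwd3 (0.95), Chac1 (0.94), Srebf1 (0.93) and Kctd14 (0.93). Ddit3 followed at rank 13 (0.92). After each genotype's mean was subtracted, Ddit4 ranked first with 0.97, and the 8 ran from 0.72 to 0.97. Kctd14, the last of the 8, then ranked 6. The rest of the 8 fell in rank among the 249, with Srebf1 at 13 and Mpzl2 at 18. Col1a1 ranked 26, Trib3 27, Chac1 37 and Rfwd3 39. Mpzl2, an epithelial adhesion protein gene, differed by -0.84, Srebf1, of lipid synthesis, by -0.54, Rfwd3, a ubiquitin ligase gene, by -0.70 and Kctd14 by -0.74, and none of these 4 passed.

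Markers of other cells were read beside Fgf21, and by limma none on these lists passed over all probe sets, where 0.132% of all genes did. Over all 18193 genes, 9126 were lower in KO and 9067 higher, and 7.56% were lower without overlap. Of 7 stellate cell and fibroblast markers, 7 were lower in KO and 4 of them did not overlap, with Postn at -0.82 and Col1a1 at -0.61. Their summed linear signal was 2933 to 4159 in KO and 4285 to 5603 in WT, and none was below the array medians. Of 5 adipocyte markers 4 were lower, with summed signal of 573.1 to 919.7 in KO and 772.5 to 1531 in WT, and Cidec and Lep were below the medians. Adipoq measured 2.26, 5.73 and 5.65 in KO, against 5.12, 6.99 and 6.06 in WT, so KO replicate 1 was lowest in both Adipoq and Fgf21. Among the WT arrays, however, replicate 1 was highest in Fgf21 and lowest in Adipoq. Without KO replicate 1 the Fgf21 difference was -2.25.

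Hepatocyte markers were dim, with 6 of 7 higher in KO, summed signal of 84.6 to 99.9 in KO and 86.2 to 120.9 in WT, and Fgb, Ahsg and Cyp2e1 below the medians. Apoa1 measured 5.74 in WT replicate 1, the array highest in Fgf21, and 3.93 and 3.71 in the other WT arrays, while Alb measured 3.74 in WT replicate 1. Of 8 acinar markers all were lower, by a median of 0.03 in size, with Ptf1a at -0.56 and Bhlha15 at -0.18, and summed signal of 82220 to 83610 in KO and 84580 to 84900 in WT, near the compressed top of the scale. None of the other lists, for islet, duct, endothelial, immune and intestinal cells, had a summed signal in which the KO and WT arrays were fully apart. The part of these cells in the Fgf21 difference was not tested.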

How the data were processed

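RNA of whole pancreas from 3 KO and 3 WT mice was hybridised to 1 Affymetrix array each, and samples were grouped by their titles. The authors deposited log2 values, which per the submitters' processing notes came from RMA and affy, with versions not given in the sources. No further normalization was applied, and 64 Affymetrix control probe sets were left out. Symbols came from the platform annotation, updated by Entrez identifier, and a gene was represented by its brightest single-symbol probe set. KO minus WT was tested two-sided with limma 3.58.1 in R 4.3.3, adjusted by Benjamini and Hochberg over 45037 probe sets, with a threshold of 0.05. The number of arrays limits the precision, and the p-values measure the spread between these samples. Promoter windows came from RefSeq (GRCm38.p6). The tests were tested on simulated data. The members and lists were chosen with earlier results of these data known. Named genes were the members, Pebp1, the 8 genes most like Fgf21 and 3 most opposed, up to 4 of largest difference per pathway list plus set regulators, klotho relatives and ligands, and up to 2 per marker list. Others named (Asns, Phgdh, Psat1, Cth, Alb, Xist and those beside the motif) were chosen after their values were seen. Listed genes without a value here were not analysed. Alternatives were other scalings, filters, variance models, a replicate block, array weights, an Xist covariate, and leaving out each array.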

Additional observations from a re-analysis of the deposited data

How the results depend on the processing

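The Fgf21 difference, by which the gene was chosen, is given for its size only. It was -2.80 to -2.06 with 1 array left out and -2.47 to -2.37 with other scalings, array weights or the Xist covariate, and the other settings cannot move it. Fgfr1, Fgfr2, Fgfr3 and Fgfr4 kept their direction and did not pass under any of theirs, though the mean of all probe sets brought them to between -0.09 and 0.06, and Klb did not pass either but differed by 0.11 with the mean of both its probe sets. The count of probe sets past the threshold was 44, against 16 to 41 with 1 array left out, 22 with the Xist covariate, 24 with 1 probe set per gene and 76 at an adjusted p under 0.1, where fewer arrays or fewer probe sets change the power. Of the pathway genes 0 passed in the main setting. With an intensity trend and robust variance 1 passed, Trib3 (adjusted p 0.0306), and with 1 array left out 0 to 3. The replicate number as a block gave 33 probe sets and 1 pathway gene, Egr1 (adjusted p 0.0207). Deviations of same-numbered arrays correlated at 0.19, -0.03 and -0.08, and not every array correlated best with its own number, so the samples share only a number. By deviations from the genotype means, 2 of the 8 genes most like Fgf21 were again among the first 8. Dim probe sets limit what can be seen of Fgfr4 and of most FGF ligands.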

Other observations

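Genes that ran opposite to Fgf21 over the 6 arrays were led by Ndrg1, with a Pearson correlation of -0.97, Arhgef26 with -0.96 and Nfasc with -0.96. Ndrg1, a gene induced by hypoxia and cell stress, measured 10.01, 9.51 and 9.62 in KO, against 8.72, 8.87 and 9.19 in WT, a difference of 0.78 that did not pass (limma, adjusted p 0.183). Arhgef26, which encodes a guanine nucleotide exchange factor, measured 7.06, 7.09 and 6.72 in KO, against 6.05, 6.36 and 6.52 in WT (adjusted p 0.240). Nfasc, a cell adhesion protein gene, rose by 1.31 in KO, at 5.78, 5.85 and 5.47, against 4.31, 4.22 and 4.64 in WT (adjusted p 0.0093). The KO values of all 3 genes lay above their WT values, where 6.87% of all genes were higher in KO without overlap. These genes were picked for running opposite to Fgf21, which was itself chosen by its genotype difference. Their separation and their p-values are therefore no independent evidence. Subtracting the genotype means left correlations of -0.88 for Ndrg1, -0.84 for Arhgef26 and -0.61 for Nfasc.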
